A study of Homo sapiens with 8 samples.

Results

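NCI-H1581R is a variant of the NCI-H1581 lung cancer line that was selected to grow in the fibroblast growth factor receptor (FGFR) inhibitor CPL304110, and its 4 RNA-seq libraries, 2 of the resistant variant and 2 of the sensitive parent, were compared here out of 8 in the series. NCI-H1581 is an established large cell carcinoma line with an amplified FGFR1 gene. The parent was exposed to the inhibitor from 50 nM upwards, with the dose raised whenever growth recovered, until cells proliferated at 2.5 µM after 4 to 6 months. Both variants were grown in DMEM/F12 with serum, given fresh medium and harvested 24 h later, and the sources used here do not say whether that medium held inhibitor for NCI-H1581R. The resistant variant is a single selected population, and the 2 libraries of each variant are repeats of the seeding and harvest, so the p-values measure the spread between such repeats and not between independent selections. NCI-H1703, the other line of the series, and its resistant variant NCI-H1703R serve below for comparison. NCI-H1703 was kept in RPMI medium, and NCI-H1703R was selected from 50 nM up to 5 µM over 4 to 6 months.

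Of 37441 genes in the table, 18203 had at least 10 counts summed over the 8 libraries of the series and were tested. The libraries held between 35677346 and 40031710 counts, and 3 counts corresponded to between 0.0755 and 0.0874 CPM (counts per 1000000 of the scaled library size). A gene was said to rise or fall in NCI-H1581R where the edgeR quasi-likelihood test gave an adjusted p below 0.1 over all genes tested. This was the case for 15.1% of genes, 7.63% higher and 7.44% lower, which is the background against which the counts for each gene group are given. Of these genes, 258 rose and 219 fell by more than 16-fold, 69 went from under 0.5 CPM in both NCI-H1581 libraries to at least 5 CPM in both NCI-H1581R libraries, and 47 made the opposite change. The median log2 fold change of all genes tested was 0.04. The libraries of the 2 variants did not overlap for 50.9% of genes tested. The gene groups below were listed with earlier results of these data known, and 402 of their 1324 tested genes were called. Their shares could therefore lie above the background from the choice of genes alone. Among genes with a mean of at least 1 CPM and a known position, 9.81% were higher and 9.30% lower. With 2 libraries a variant, many calls were lost when either NCI-H1581 library was left out. For the gene groups below, the number of calls that remained is given first without NCI-H1581 replicate 1 and then without NCI-H1581 replicate 2. In such a fit the spread comes from the NCI-H1581R pair alone. Replicates of NCI-H1581R differed more (chi-square per degree of freedom 103.2, against 24.8 in NCI-H1581). A lost call can therefore reflect that spread, and does not show that the 2 NCI-H1581 libraries disagreed.

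FGF receptors are surface tyrosine kinases that, once an FGF ligand and a heparan sulphate or Klotho co-receptor are bound, switch on the RAS-ERK cascade. ERK activity induces early transcription factors and a set of feedback inhibitors, such as the Sprouty proteins and the dual-specificity phosphatases, whose transcripts are commonly read as a measure of pathway output. In the developing lung, FGF signals from the mesenchyme act together with BMP, Wnt and TGF-β signals to set the fate of the epithelium.

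The 30 largest changes comprised 15 rises and 15 falls among protein-coding genes with a mean of at least 5 CPM whose libraries did not overlap between variants. A pair of drug efflux pumps stood among the rises. ABCB1, which encodes P-glycoprotein, was at 0.0291 and 0.101 CPM in NCI-H1581 and at 227 and 245 CPM in NCI-H1581R, a log2 fold change of 11.70 ± 0.34 (SE, edgeR, adjusted p = 8.91e-06). ABCG2, which encodes the breast cancer resistance protein, was at 0.524 and 0.277 CPM in NCI-H1581 against 594 and 443 CPM in NCI-H1581R (10.36 ± 0.37). For each pump both NCI-H1581 libraries were under 1 CPM and no NCI-H1581R library was under 227 CPM. SRARP was at 0.379 and 0.126 CPM in NCI-H1581 against 507 and 415 CPM in NCI-H1581R, ALDH1A2, an enzyme that makes retinoic acid, at 0.0874 and 0.0252 CPM in NCI-H1581 against 148 and 107 CPM in NCI-H1581R, and PAGE4, a cancer-testis antigen, at 0.262 and 0.0503 CPM in NCI-H1581 against 210.4 and 176 CPM in NCI-H1581R. Of the 15 rises, 6 had no count in either NCI-H1581 library. FILIP1, a regulator of filamin, stood at 31.5 and 61.8 CPM in NCI-H1581R, which is at least 1159-fold higher when NCI-H1581 is set to 3 counts over both libraries. On the same floor PABPC5 was at least 703-fold, VWA2 at least 546-fold, the imprinted gene PEG3 at least 433-fold, PLCL1 at least 378-fold and TMEM132C at least 296-fold higher. RUNDC3B, SGPP2, a sphingosine-1-phosphate phosphatase, the secreted protein NDNF and the catenin CTNNA2 had 1 count in NCI-H1581. In the same order they stood at 68.9 and 50.5, 41.4 and 41.3, 34.6 and 40.01 and 20.4 and 23.3 CPM in NCI-H1581R. The span of RUNDC3B overlaps that of ABCB1 on the opposite strand, without shared exon bases. FILIP1 shares 38.4% and PEG3 39.1% of its exon bases with other annotated genes, and reads of such pairs may be split or exchanged between them.

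The 15 largest falls held several secreted and surface proteins. GCG, which encodes proglucagon, fell from 951 and 748 to 0.503 and 0.409 CPM, a log2 fold change of -10.85 ± 0.34. TIMP1, an inhibitor of matrix metalloproteinases, fell from 193 and 172 to 0.318 and 0.0512 CPM, and SLC38A5, a glutamine transporter, from 348 and 272 to 1.14 and 0.716 CPM. The growth factor PTN fell from 63.2 and 74.9 to 0.106 and 0.205 CPM and the diacylglycerol kinase DGKI from 68.6 and 74.98 to 0.0794 and 0.128 CPM. In these 5 genes no NCI-H1581R library exceeded 1.14 CPM. SLC5A7, the choline transporter of cholinergic neurons, went from 23.1 and 26.97 CPM to 0 in both libraries, at least 645-fold lower. The ligand TGFB2, the neuronal adhesion protein CNTNAP4, LRRC61, the serine proteases DPP4 and FAP, and ARHGAP31, a GTPase-activating protein, each kept 1 to 3 counts in the 2 NCI-H1581R libraries together. TGFB2, at 28.3 and 33.2 CPM in NCI-H1581, was 2376-fold (95% interval 426 to 93904) lower in NCI-H1581R. FAP, at 12.6 and 12.7 CPM in NCI-H1581, was 486-fold (95% interval 134 to 4020.5) lower in NCI-H1581R, and DPP4, at 39.7 and 42.6 CPM in NCI-H1581, was 1058-fold (95% interval 362 to 5132) lower in NCI-H1581R. The intervals cover counting error only. RFPL4B fell from 16.5 and 15.9 to 0.106 and 0 CPM and the matrix proteoglycan DCN from 47.98 and 43.7 to 0.238 and 0.0768 CPM. CNTNAP4 shares 51.3%, RFPL4B 36.8%, LRRC61 29.7% and TGFB2 22.7% of its exon bases with another gene. Some of these falls are of neighbours. DPP4, GCG and FAP lie close together on chromosome 2 (chr2:161992245-162245151), near IFIH1, which fell too and is given below. PTN and DGKI lie close together on chromosome 7 (chr7:137227341-137847092). Whether neighbours shared a cause was not tested.

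**Figure D1:**
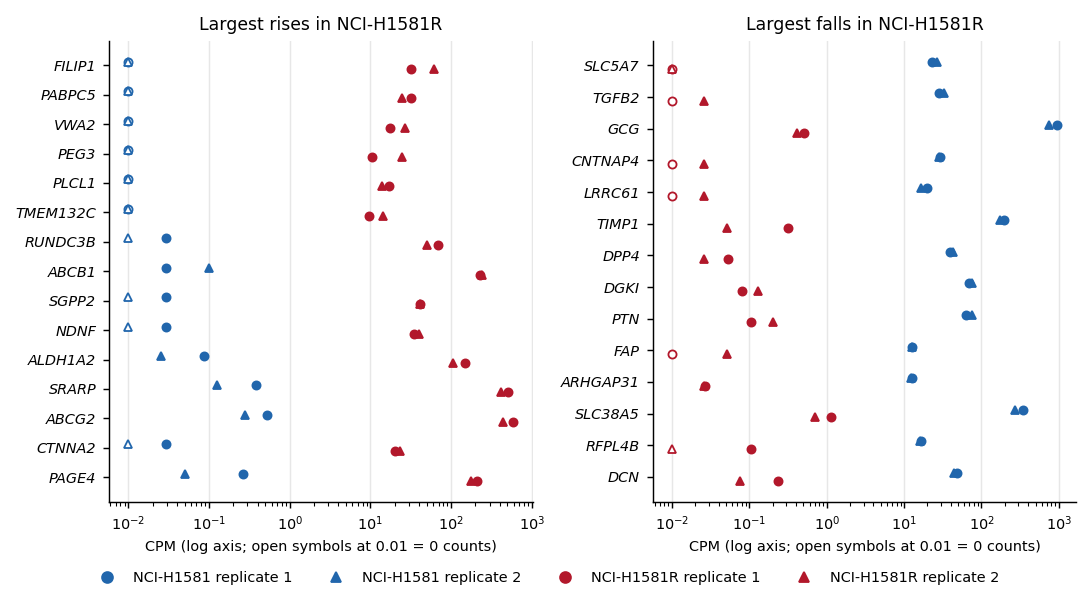
CPM of the 15 genes with the largest rises (left) and 14 of the 15 with the largest falls (right) in each of the 4 libraries, on a log axis; blue symbols are NCI-H1581, red symbols NCI-H1581R, circles replicate 1, triangles replicate 2, and open symbols mark 0 counts. The 2 blue and the 2 red symbols lie apart because genes were picked for not overlapping between variants. ABCB1 rose from at most 0.101 to at least 227 CPM and GCG fell from at least 748 to at most 0.503 CPM.

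Among the 5 FGF receptor genes, FGFR1 and FGFR2 fell and FGFR3, FGFR4 and FGFRL1 did not pass the test. FGFR2 fell from 184 and 182 to 5.002 and 0.972 CPM (-5.95 ± 0.55; edgeR adjusted p = 0.001101), and FGFR1 from 203 and 172 to 26.9 and 35.4 CPM (-2.59 ± 0.21). The other receptors were at 143 and 108 CPM in NCI-H1581 against 129 and 96.04 CPM in NCI-H1581R for FGFR4, at 34.3 and 30.2 CPM in NCI-H1581 against 21.1 and 24.9 CPM in NCI-H1581R for FGFRL1, a receptor without a kinase domain, and at 3.03 and 3.296 CPM in NCI-H1581 against 4.92 and 7.19 CPM in NCI-H1581R for FGFR3. FGF ligands went the other way: 4 of 16 tested members rose and 0 fell, with a median log2 fold change of 1.38. FGF8, a ligand of limb and midbrain patterning, rose from 1.43 and 1.21 to 141 and 169 CPM (6.88 ± 0.25). FGF10, the main mesenchymal ligand of lung branching, rose from 67.3 and 79.2 to 311 and 290.3 CPM and FGF20 from 31.2 and 27.95 to 89.4 and 82.8 CPM. FGF7 had no count in NCI-H1581 and stood at 1.64 and 1.25 CPM in NCI-H1581R, at least 35.7-fold higher. All 4 of these ligand calls remained when any 1 library was left out. Among co-receptors and adaptors, 4 of 18 tested members rose and 2 fell, with a median log2 fold change of 0.12. The heparan sulphate proteoglycan GPC3 rose from 33.8 and 54.5 to 956 and 1282 CPM (4.66 ± 0.32), and the β-Klotho gene KLB from 0.117 and 0.302 to 1.35 and 1.94 CPM. SDC4, another heparan sulphate proteoglycan, fell from 51.4 and 43.6 to 14.8 and 10.5 CPM (-1.91 ± 0.23). The adaptor GAB1 and the exchange factor SOS2 rose (1.47 ± 0.36 and 1.10 ± 0.27) and the adaptor SHC1 fell (-0.88 ± 0.20). The calls of KLB, GAB1, SOS2 and SHC1 were lost when either NCI-H1581 library was left out.

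Of the ERK feedback and target genes, 3 of 24 tested members rose and 7 fell, with a median log2 fold change of -0.45. EGR1, an immediate-early transcription factor, fell from 46.8 and 59.2 to 1.56 and 1.1001 CPM (-5.32 ± 0.28), and FOSL1, a subunit of AP-1, from 17.6 and 14.3 to 2.04 and 1.82 CPM (-3.05 ± 0.28). SPRY2, a Sprouty feedback inhibitor, fell from 101 and 106 to 19.1 and 12.7 CPM and IL17RD, an inhibitor of FGF signalling, from 2.85 and 4.101 to 0.8999 and 0.819 CPM. Against this direction PHLDA1 rose from 4.05 and 5.51 to 19.9 and 17.5 CPM (1.96 ± 0.25), EPHA4 from 0.146 and 0.453 to 2.57 and 5.32 CPM and the Spred family member SPRED3 from 10.5 and 9.76 to 15.5 and 16.8 CPM. Of the falls, 5 without NCI-H1581 replicate 1 and 4 without NCI-H1581 replicate 2 remained. SPRED3 lost its call with the replicate block. In the RAS-ERK cascade itself, 5 of 24 tested members rose and 0 fell, with a median log2 fold change of 0.31. The rises included genes for 3 ribosomal S6 kinases of the RSK family, which ERK activates. RPS6KA3 (RSK2) rose from 24.9 and 35.02 to 365 and 351 CPM (3.58 ± 0.22), RPS6KA2 (RSK3) from 0.291 and 0.151 to 4.53 and 5.19 CPM and RPS6KA6 (RSK4) from 0.117 and 0.151 to 2.46 and 5.04 CPM. The small GTPase gene RRAS2 rose by 1.24 ± 0.32, a call that was lost without either NCI-H1581 library. Of the ERK target calls, 1 and 2 of 3 rises remained, and of the RAS-ERK cascade calls, 3 and 3 of 5 rises.

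In the p38 and JNK cascade, 5 of 29 tested members rose and 2 fell, with a median log2 fold change of 0.17. MAP3K5, which encodes the stress-activated kinase ASK1 at the head of both branches, rose from 0.204 and 0.77999 to 33.6 and 45.4 CPM (6.26 ± 0.42; edgeR adjusted p = 0.000331). MKNK1, a kinase of the translation factor eIF4E, rose from 4.81 and 9.59 to 26.1 and 13.9 CPM, the phosphatase gene DUSP16 from 34.96 and 33.4 to 71.3 and 63.2 CPM and MAP2K4 from 22.3 and 22.6 to 42.5 and 40.1 CPM. MEF2C, a transcription factor phosphorylated by p38, fell from 3.26 and 2.82 to 0.476 and 0.435 CPM (-2.73 ± 0.46), and RPS6KA4, which encodes the downstream kinase MSK2, from 86.4 and 69.7 to 44.3 and 34.7 CPM. Of the rises, 1 without NCI-H1581 replicate 1 and 1 without NCI-H1581 replicate 2 remained, MAP3K5 in both cases. Of the 2 falls, 1 and 1 remained.

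Among the receptor tyrosine kinases outside the FGF receptors, 4 of 45 tested members rose and 4 fell, with a median log2 fold change of 0.00. The share called, 17.8%, was near the 15.1% of all genes. TEK, the angiopoietin receptor TIE2, had 1 count in each NCI-H1581 library and stood at 10.3 and 14.6 CPM in NCI-H1581R, 464-fold (95% interval 128 to 3833) higher. LTK stood at 0 and 0.0755 CPM in NCI-H1581 against 1.35 and 2.15 CPM in NCI-H1581R. The ephrin receptors divided, with EPHA4 and EPHA7 rising (3.66 ± 0.69 and 0.63 ± 0.18) and EPHA3 and EPHA5 falling, EPHA3 from 317 and 335 to 107 and 101 CPM and EPHA5 from 17.2 and 19.1 to 0.265 and 0.154 CPM. MUSK, at 1.14 and 1.59 CPM in NCI-H1581, kept 1 count in NCI-H1581R. ERBB3, the kinase-impaired partner of ERBB2, fell (-0.70 ± 0.21). For the ligands of these receptors, 9 of 45 tested members rose and 8 fell, with a median log2 fold change of -0.05. NRG1, a ligand of ERBB3 and ERBB4, rose from 0.146 and 0 to 7.99 and 7.98 CPM (6.82 ± 0.65), the KIT ligand KITLG from 2.07 and 0.478 to 29.7 and 17.8 CPM and PDGFD from 11.8 and 11.8 to 123 and 102 CPM. EGF itself stood at 0 and 0.0252 CPM in NCI-H1581 against 1.38 and 1.25 CPM in NCI-H1581R. HGF, the MET ligand, fell from 209 and 238 to 1.54 and 1.33 CPM (-7.29 ± 0.24) and NRG2 from 9.205 and 8.05 to 1.51 and 1.92 CPM. BDNF, at 1.49 and 2.34 CPM in NCI-H1581, kept 2 counts in the 2 NCI-H1581R libraries together. Of the receptor calls, 2 and 3 of 4 rises and 3 and 3 of 4 falls remained, and of the ligand calls, 6 and 7 of 9 rises and 5 and 6 of 8 falls.

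BMP ligands signal through SMAD1 and its relatives to the ID genes, which encode inhibitors of basic helix-loop-helix transcription factors, while TGF-β ligands use the SMAD2 and SMAD3 branch. In the BMP list, 10 of 30 tested members rose and 4 fell, with a median log2 fold change of 0.12. SMAD1 rose from 0.408 and 0.377 to 26.8 and 20.5 CPM (5.90 ± 0.36). ID1 rose from 6.73 and 6.19 to 194 and 175 CPM (4.84 ± 0.20), ID3 from 8.71 and 7.93 to 171 and 146 CPM and ID4 from 1.11 and 1.43 to 48.4 and 42.5 CPM. Each of these genes was higher in both NCI-H1581R libraries by over 10-fold. The ligand genes BMP6 and BMP7 fell, from 5.098 and 3.47 to 0.0794 and 0.0512 CPM and from 55.8 and 47.98 to 4.53 and 4.61 CPM, as did BMP5 (-1.09 ± 0.17) and BMP8B (-0.73 ± 0.19). Of the 10 rises, 8 without NCI-H1581 replicate 1 and 8 without NCI-H1581 replicate 2 remained. In the TGF-β list, 5 of 27 tested members rose and 6 fell, with a median log2 fold change of -0.27. LTBP1, which binds latent TGF-β in the matrix, rose from 1.02 and 0.478 to 36.8 and 36.9 CPM, whereas its relative LTBP3 fell from 68.4 and 64.4 to 8.97 and 8.31 CPM. The inhibitory genes SMAD7 and SKIL rose (2.85 ± 0.37 and 2.01 ± 0.29), as did INHBE (2.99 ± 0.52). TGFBR2, the type II receptor, fell from 3.44 and 3.07 to 0.556 and 0.588 CPM, the TGF-β target PMEPA1 fell (-1.89 ± 0.33), and TGFB2 is given above. Of the TGF-β calls, 4 and 3 of 5 rises and 4 and 3 of 6 falls remained, and of the BMP calls, 3 and 2 of 4 falls.

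In the Wnt list, 14 of 50 tested members rose and 10 fell, with a median log2 fold change of 0.25. The ligand WNT2B rose from 7.95 and 10.04 to 440.3 and 435 CPM (5.60 ± 0.22; edgeR adjusted p = 4.93e-05). RNF43, a ubiquitin ligase that removes Wnt receptors, rose from 1.02 and 0.705 to 11.8 and 15.9 CPM, and the secreted antagonist FRZB from 0.0583 and 0.151 to 1.69 and 2.2002 CPM. Other secreted antagonists fell, DKK2 from 138 and 157 to 2.54 and 2.28 CPM (-5.93 ± 0.22), DKK4 from 18.2 and 9.69 to 0.238 and 0.537 CPM and WIF1 from 5.01 and 3.77 to 0.0529 and 0.0512 CPM. The agonist RSPO4 fell from 10.95 and 9.96 to 0.926 and 0.537 CPM, and RSPO3, with 2 counts in NCI-H1581, stood at 0.371 and 0.537 CPM in NCI-H1581R. RNF43 shares 68.4% and WNT2B 21.5% of its exon bases with another gene. Of the Wnt rises, 8 without NCI-H1581 replicate 1 and 7 without NCI-H1581 replicate 2 remained, and of the falls, 6 without NCI-H1581 replicate 1 and 5 without NCI-H1581 replicate 2. In the Notch list, 3 of 25 tested members rose and 4 fell, with a median log2 fold change of 0.22. The ligand JAG1 fell from 8.42 and 6.09 to 0.662 and 0.972 CPM and the effector HES1 from 12.2 and 10.2 to 2.67 and 2.64 CPM, with smaller falls of NRARP (-0.90) and LFNG (-0.94). HEY2, HES7 and DTX1 rose (3.42 ± 0.63, 1.68 ± 0.33 and 1.77 ± 0.30). Among Hedgehog genes, 2 of 17 tested members rose and 2 fell, with a median log2 fold change of -0.05. HHIP, which binds Hedgehog ligands, rose from 29.7 and 29.4 to 259 and 264 CPM and the co-receptor GAS1 from 0.408 and 0.7297 to 11.5 and 10.4 CPM, while the target GLI1 (-0.59 ± 0.17) and SCUBE1 (-2.21 ± 0.46) fell. Of YAP and TEAD target genes, 5 of 26 tested members rose and 3 fell, with a median log2 fold change of 0.06. The matricellular protein CCN1 rose from 1.66 and 1.64 to 15.4 and 17.1 CPM, GADD45A, MYOF and AMOTL2 rose by 2.21, 1.89 and 1.35 on the log2 scale, and FJX1 (-2.55 ± 0.28) and TEAD1 (-0.80 ± 0.20) fell. Of the Notch calls, 3 and 1 of 3 rises and 2 and 2 of 4 falls remained, of the Hedgehog calls, 2 and 2 of 2 rises and 1 and 0 of 2 falls, and of the YAP and TEAD calls, 2 and 1 of 5 rises and 2 and 2 of 3 falls.

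**Figure D2:**
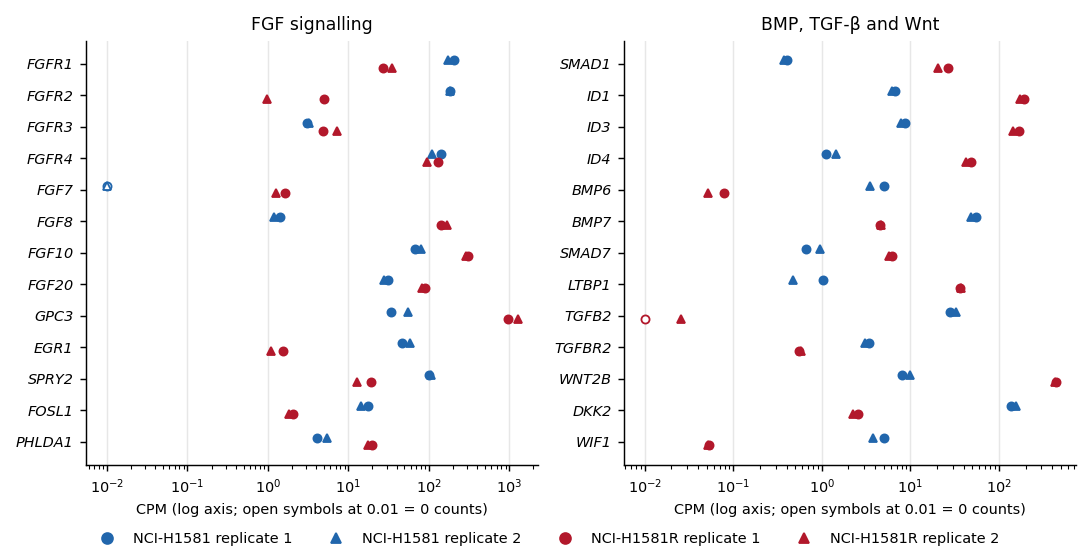
CPM of FGF signalling genes (left) and of BMP, TGF-β and Wnt genes (right) in each of the 4 libraries, on a log axis; blue is NCI-H1581, red NCI-H1581R, circles replicate 1, triangles replicate 2, and open symbols mark 0 counts. FGFR2 fell to 5.002 and 0.972 CPM while FGF8 rose to 141 and 169 CPM, and ID1, ID3 and ID4 lie higher in both NCI-H1581R libraries.

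ATF4 is a transcription factor of the integrated stress response that turns on amino acid synthesis and transport, tRNA charging and stress regulators. Of its regulators and targets, 12 of 24 tested members rose and 0 fell, with a median log2 fold change of 0.94. ATF3 rose from 1.49 and 1.38 to 15.9 and 17.6 CPM (3.55 ± 0.27), CHAC1, which degrades glutathione, from 9.58 and 9.44 to 97.4 and 109.8 CPM (3.45 ± 0.18) and the AP-1 repressor JDP2 from 6.23 and 4.83 to 24.01 and 31.2 CPM (2.32 ± 0.25). VLDLR was low, at 0.146 and 0.0252 CPM in NCI-H1581 against 0.847 and 0.768 CPM in NCI-H1581R. Of the 12 rises, 4 without NCI-H1581 replicate 1 and 6 without NCI-H1581 replicate 2 remained, and all 12 remained without either NCI-H1581R library. Among enzymes of serine and one-carbon metabolism, 8 of 18 tested members rose and 2 fell, with a median log2 fold change of 0.34. The mitochondrial folate enzyme ALDH1L2 rose from 1.22 and 0.705 to 5.93 and 11.8 CPM, PCK2, the mitochondrial phosphoenolpyruvate carboxykinase, from 59.3 and 67.2 to 166 and 178 CPM, CTH from 4.25 and 4.68 to 12.7 and 12.9 CPM and PHGDH, the entry enzyme of serine synthesis, from 15.8 and 7.75 to 51.2 and 26.6 CPM. GLDC (-0.93 ± 0.24) and thymidylate synthase TYMS (-0.69 ± 0.19) fell. TYMS shares 47.9% of its exon bases with another gene. Of the 8 rises, 3 without NCI-H1581 replicate 1 and 2 without NCI-H1581 replicate 2 remained. Of the cytosolic aminoacyl-tRNA synthetases, 6 of 20 tested members rose and 1 fell, with a median log2 fold change of 0.06. CARS1, GARS1, MARS1 and TARS1 rose by 0.94, 0.87, 0.75 and 0.67 on the log2 scale, and KARS1 was lower (-0.72 ± 0.20). None of these 7 calls remained without either NCI-H1581 library. Neither fall of the serine and one-carbon list remained.

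Endoplasmic reticulum chaperones, which fold secreted proteins, moved in the opposite direction: 0 of 21 tested members rose and 11 fell, with a median log2 fold change of -0.69. PDIA6 fell from 1177 and 1122 to 615 and 483 CPM (-1.07 ± 0.21), PDIA4 from 161 and 159.7 to 75.9 and 88.2 CPM (-0.97 ± 0.16), MANF from 44.2 and 36.8 to 21.6 and 20.9 CPM and calreticulin CALR from 2069.8 and 1848 to 1109 and 969 CPM. The falls were near 2-fold, and 11 of 11 remained without either NCI-H1581R library but 0 of 11 without either NCI-H1581 library. The 13 protein genes encoded by mitochondrial DNA gave a median log2 fold change of -0.93, with 9 falling and 13 of 13 below 0. MT-CYB, a subunit of complex III, was at 3497 and 2649.9 CPM in NCI-H1581 against 1348 and 1509 CPM in NCI-H1581R, MT-CO2, of complex IV, at 7697 and 5882 CPM in NCI-H1581 against 3566 and 2791 CPM in NCI-H1581R, MT-ATP8 at 539.8 and 397 CPM in NCI-H1581 against 216 and 259 CPM in NCI-H1581R and MT-ND6 at 8.74 and 5.76 CPM in NCI-H1581 against 2.25 and 2.66 CPM in NCI-H1581R. Genes on mitochondrial DNA made up 6.59% and 5.36% of counts in NCI-H1581 and 3.25% and 3.29% in NCI-H1581R, and 6 of the 9 falls passed with the replicate block. At most 1 of the 9 remained without an NCI-H1581 library. The nuclear subunits of oxidative phosphorylation showed 1 rise, COX6C (0.69 ± 0.15), and 1 fall, COX4I1 (-0.86 ± 0.26), among 36 tested, with 30 below 0 and a median of -0.24. That median depended on the NCI-H1581R library kept, at -0.47 without NCI-H1581R replicate 1 and -0.01 without NCI-H1581R replicate 2. In the glycolysis and hypoxia list, 3 of 28 tested members rose and 7 fell, with a median log2 fold change of -0.18. ALDOC fell from 40.1 and 32.1 to 2.96 and 2.94 CPM (-3.61 ± 0.24), adrenomedullin ADM from 14.2 and 9.56 to 1.75 and 1.202 CPM, the lactate exporter SLC16A3 from 52.3 and 39.96 to 10.9 and 13.6 CPM and ANKRD37 fell (-1.36 ± 0.41), while the glucose transporter SLC2A3 rose from 102 and 94.8 to 402 and 317 CPM and the enzymes PFKM and ENO2 rose by 0.84 and 0.67. Of the glycolysis and hypoxia calls, 1 and 1 of 3 rises and 3 and 3 of 7 falls remained, and neither call among nuclear oxidative phosphorylation subunits did.

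Metallothioneins bind zinc and copper, and their genes lie together on chromosome 16. The list had 5 tested members and all 5 fell, with a median log2 fold change of -2.29. MT2A fell from 24.2 and 24.5 to 5.27 and 6.47 CPM (-2.05 ± 0.22) and MT1X from 5.797 and 8.63 to 1.43 and 1.54 CPM (-2.29 ± 0.36). MT3 and MT1E were low in both variants, at 0.903 and 1.01 CPM in NCI-H1581 against 0.106 and 0.0768 CPM in NCI-H1581R and at 1.31 and 1.43 CPM in NCI-H1581 against 0.371 and 0 CPM in NCI-H1581R, and MT1E lost its call in DESeq2, with legacy dispersions and without NCI-H1581 replicate 2 or NCI-H1581R replicate 2. Of the NRF2 target genes, which respond to oxidants, 1 of 27 tested members rose and 2 fell, with a median log2 fold change of -0.04. OSGIN1 fell from 12.4 and 9.18 to 2.22 and 2.71 CPM, HMOX1 from 151 and 148 to 83.4 and 72.9 CPM, and ME1 rose from 17.9 and 15.7 to 40.7 and 33.3 CPM. In the cholesterol list, 1 of 25 tested members rose and 3 fell, with a median log2 fold change of -0.26. The share called was near the 15.1% of all genes, the falls were of SQLE, MVD and DHCR7 (-0.63, -0.75 and -0.75), and no call remained without either NCI-H1581 library. Among multidrug transporters, ABCB1 and ABCG2 rose, the vault protein gene MVP fell from 43.3 and 38.9 to 18.5 and 16.5 CPM and SLCO4A1 from 126 and 97.1 to 58.9 and 53.04 CPM, and 7 of the 11 tested members were not called. Of the metallothionein calls, 5 and 3 of 5 falls (3 without NCI-H1581R replicate 2) remained, of the NRF2 calls, 0 and 0 of 1 rise and 1 and 1 of 2 falls, and of the transporter calls, 0 and 2 of 2 falls.

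**Figure D3:**
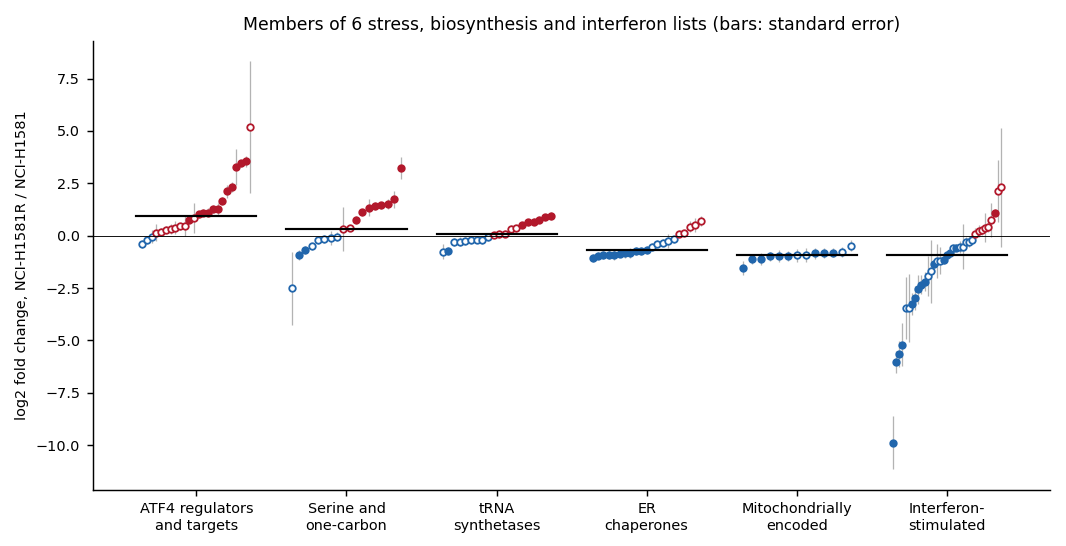
Log2 fold change (NCI-H1581R over NCI-H1581, with its standard error) of each tested member of 6 gene lists; filled symbols passed the test, open symbols did not, and the horizontal bar is the list's median. The medians run from 0.94 for ATF4 regulators and targets to -0.93 for both mitochondrially encoded protein genes and interferon-stimulated genes, and the endoplasmic reticulum chaperones lie close together around -0.69.

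Interferon-stimulated genes are antiviral genes that type I interferon switches on through the factor ISGF3, which binds the interferon-stimulated response element in their promoters, and many tumour lines keep some of them active without added interferon. In this list, 1 of 35 tested members rose and 14 fell, with a median log2 fold change of -0.93. IFIH1, which encodes the RNA sensor MDA5, was at 3.58 and 2.72 CPM in NCI-H1581 and had no count in NCI-H1581R, at least 79.9-fold lower. It lies on chromosome 2 near DPP4, GCG and FAP, which fell too and are given above. MX2 fell from 6.001 and 6.44 to 0.0794 and 0.102 CPM (-6.04 ± 0.52) and BST2, which tethers virus particles to the cell, from 4.34 and 3.82 to 0.132 and 0.0256 CPM (-5.65 ± 0.64). IFI44 was at 1.19 and 0.981 CPM in NCI-H1581 against 0 and 0.0512 CPM in NCI-H1581R, with 2 counts in NCI-H1581R. HERC5, a ligase for the ubiquitin-like protein ISG15, was the 1 member that rose, from 26.9 and 28.5 to 60.95 and 57.3 CPM (1.09 ± 0.16), and it lost its call without either NCI-H1581 library. The levels in NCI-H1581 were low to begin with for all 4 falling interferon-stimulated genes named, at most 6.44 CPM. Of the 14 falls, 8 without NCI-H1581 replicate 1 and 7 without NCI-H1581 replicate 2 remained. Cytokines and chemokines, some of which feed this pathway, had 12 tested members, of which LIF fell (2.39 and 2.06 CPM in NCI-H1581 against 0.291 and 0.461 CPM in NCI-H1581R) and none rose. The call of LIF was lost without NCI-H1581 replicate 1.

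The core of the response element was searched for in RefSeq promoters (GRCh38.p14, 250 bases before to 50 bases after each gene's start) as GAAA followed, after any 2 bases, by GAAA, on both strands. It was present in 3.65% of 27305 promoters and in 19 of the 30 promoters found for the list, among them 9 of members that fell and that of HERC5. In the 22 promoters found for the ATF4 list, TGATGNAAT, the response element that ATF4 binds together with C/EBP factors, was present in 1, against 1.02% of all promoters. That promoter was not of a member that rose. The interferon sequences are shown because they carry the element that 9 falling members and the rising HERC5 have in common. Each is the stretch around the match nearest to the start, cut to the bases before the start, written 5′ to 3′ in the direction of the gene, with the match in capitals; a match on the opposite strand reads TTTC and TTTC with 2 bases between them.
IFIH1 (chr2:162318685-162318725, minus strand): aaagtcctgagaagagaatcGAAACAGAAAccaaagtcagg
BST2 (chr19:17405725-17405780, minus strand): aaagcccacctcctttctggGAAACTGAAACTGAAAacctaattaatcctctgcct
IFI44 (chr1:78649751-78649788, plus strand): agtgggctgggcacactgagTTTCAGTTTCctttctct
IFITM1 (chr11:313980-314029, plus strand): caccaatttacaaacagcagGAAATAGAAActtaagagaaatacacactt
IFIT3 (chr10:89327855-89327904, plus strand): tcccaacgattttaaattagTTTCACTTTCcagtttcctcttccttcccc
IFIT1 (chr10:89392500-89392549, plus strand): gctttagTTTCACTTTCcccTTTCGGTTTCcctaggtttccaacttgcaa
IFI6 (chr1:27672256-27672305, minus strand): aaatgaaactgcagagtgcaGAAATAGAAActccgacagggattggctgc
IFITM3 (chr11:320866-320915, minus strand): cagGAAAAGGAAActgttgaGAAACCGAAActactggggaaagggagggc
OAS3 (chr12:112938442-112938473, plus strand): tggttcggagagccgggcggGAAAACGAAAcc
HERC5 (chr4:88457025-88457074, plus strand): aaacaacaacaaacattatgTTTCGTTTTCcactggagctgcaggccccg
In BST2 overlapping matches run together, and in IFIT1 and IFITM3 a further match lies close by. The genes are in the order of their change: IFITM1 fell from 3.82 and 2.99 to 0.265 and 0.435 CPM, IFIT3 from 2.796 and 2.37 to 0.4499 and 0.665 CPM and IFIT1 from 12.1 and 14.1 to 5.58 and 4.61 CPM. IFI6, IFITM3 and OAS3 also fell (-1.15 ± 0.19, -0.82 ± 0.18 and -0.57 ± 0.16). These 6 genes were named for their promoters, after their values were seen. IFITM1 and IFITM3 are close paralogues and reads may be exchanged between them. A match is a description of these letters and not of binding, and 9 listed promoters with the match belonged to members that were not called or not tested.

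Antigen presentation through MHC class I gave 1 rise and 2 falls among 16 tested members, a share called of 18.8%, near the 15.1% of all genes. NLRC5, the transactivator of class I genes, fell from 2.18 and 1.69 to 0.318 and 0.2303 CPM, the peptide-loading factor TAPBP from 105 and 113 to 33.98 and 45.8 CPM (-1.45 ± 0.20), and the trimming peptidase ERAP1 rose from 52.7 and 56.2 to 229.8 and 194 CPM (1.96 ± 0.18). Of these calls, 1 and 1 of 1 rise and 1 and 2 of 2 falls remained.

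The carcinoma label was checked against epithelial markers, which were low in both variants. KRT8, KRT18 and KRT19 were between 0.794 and 3.78 CPM over the 4 libraries and none was called. CDH1 was at 0.524 and 1.16 CPM in NCI-H1581 against 0.265 and 0.716 CPM in NCI-H1581R and EPCAM fell from 15.6 and 13.2 to 8.18 and 7.27 CPM (-0.90 ± 0.23). The intermediate filament gene VIM, a mesenchymal marker, was at 6588 and 6145 CPM in NCI-H1581 against 4719 and 3959 CPM in NCI-H1581R and CDH2 at 3.47 and 2.19 CPM in NCI-H1581 against 1.01 and 1.15 CPM in NCI-H1581R, neither called. Among epithelial adhesion genes, 2 of 33 tested members rose and 6 fell, with a median log2 fold change of -0.33. P-cadherin CDH3 fell from 6.47 and 8.35 to 0.635 and 0.921 CPM, the protease inhibitor SPINT1 from 19.8 and 18.3 to 2.01 and 2.48 CPM and the junction protein F11R from 55.7 and 52.2 to 13.5 and 19.5 CPM, whereas CLDN6, a claudin of embryonic epithelia, rose from 0.117 and 0.679 to 75.9 and 54.8 CPM (7.28 ± 0.45) and GRHL1 by 1.38 ± 0.42. F11R shares 36.6% of its exon bases with another gene. No keratin passed the test among 16 tested by edgeR or by DESeq2, and KRT5 was present in replicate 2 of each variant and nearly absent from replicate 1, at 0.0291 and 1.18 CPM in NCI-H1581 against 0 and 1.05 CPM in NCI-H1581R. Of the epithelial adhesion calls, 1 and 1 of 2 rises (1 without NCI-H1581R replicate 2) and 3 and 3 of 6 falls remained.

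Of the mesenchymal genes, 4 of 29 tested members rose and 10 fell, with a median log2 fold change of -0.68. The rises were of fibronectin FN1, from 0.612 and 1.43 to 742 and 925 CPM (9.63 ± 0.38), of periostin POSTN, from 0 and 0.101 to 8.28 and 8.24 CPM, and of the transcription factors ZEB1, from 1.63 and 2.31 to 18.8 and 31.9 CPM, and TWIST1, from 9.85 and 10.8 to 37.95 and 37.4 CPM. All 4 remained when any 1 library was left out. The falls were of FAP, DCN, lumican LUM, from 96.8 and 108 to 0.291 and 0.742 CPM, THY1, from 48.8 and 45.5 to 2.41 and 2.02 CPM, and 6 others. Of the 10 falls, 8 without NCI-H1581 replicate 1 and 8 without NCI-H1581 replicate 2 remained. In the collagen list, 1 of 34 tested members rose and 11 fell, with a median log2 fold change of -0.75. COL21A1 fell from 259.9 and 314 to 16.01 and 22.9 CPM (-3.88 ± 0.24), COL11A1 from 21.4 and 23.4 to 1.61 and 3.51 CPM, COL5A3 from 1.34 and 1.01 to 0.0265 and 0.128 CPM, and COL18A1 fell too (-1.78 ± 0.41). COL26A1 was the 1 collagen that rose, from 7.75 and 7.22 to 65.8 and 71.8 CPM. COL1A1 and COL3A1, which make the main fibrils of connective tissue, fell as well (-1.09 ± 0.23 and -0.94 ± 0.23). For integrins and laminins, 4 of 30 tested members rose and 3 fell, with a median log2 fold change of 0.09. The laminin chains LAMA1, LAMA2 and LAMA4 fell, LAMA1 from 45.3 and 47.9 to 11.3 and 9.901 CPM, LAMA2 from 6.73 and 6.04 to 0.238 and 0.0512 CPM and LAMA4 from 3.64 and 5.03 to 0 and 0.0256 CPM. The integrin chains ITGB5, ITGA3, ITGB1 and ITGA8 rose, ITGB5 from 11.4 and 7.98 to 73.4 and 68.4 CPM (2.87 ± 0.23). Among matrix proteases and their inhibitors, 5 of 25 tested members rose and 7 fell, with a median log2 fold change of -0.35. MMP16, a membrane-bound metalloproteinase, rose from 0.262 and 0.327 to 35.04 and 38.9 CPM, and ADAMTS6, ADAMTS5 and ADAMTS10 rose by 2.80, 1.78 and 1.27. MMP2, the secreted gelatinase, fell from 151 and 178 to 7.38 and 7.14 CPM (-4.50 ± 0.20), the plasminogen activator PLAT from 2.68 and 2.11 to 0.159 and 0.333 CPM, and ADAMTS3, at 1.25 and 0.226 CPM in NCI-H1581, had no count in NCI-H1581R, at least 17.99-fold lower. Of the collagen calls, 1 and 1 of 1 rise and 4 and 5 of 11 falls remained, of the integrin and laminin calls, 1 and 3 of 4 rises and 3 and 3 of 3 falls, and of the protease and inhibitor calls, 3 and 2 of 5 rises (3 without NCI-H1581R replicate 2) and 4 and 6 of 7 falls.

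Cell adhesion and guidance genes changed in both directions. Of the cadherins outside the protocadherin clusters, 6 of 24 tested members rose and 6 fell, with a median log2 fold change of -0.31. CDH6, a cadherin of kidney and neural tube, rose from 1.02 and 1.38 to 226 and 245 CPM (7.60 ± 0.25; edgeR adjusted p = 4.16e-05), CDH8 from 0.3204 and 0.654 to 33.6 and 35.4 CPM, PCDH11X from 0.0874 and 0.403 to 38.2 and 41.96 CPM and PCDH19 from 0.379 and 0.7297 to 15.6 and 13.7 CPM. FAT1 fell from 213 and 196 to 40.2 and 36.9 CPM (-2.41 ± 0.17), and CDH12, CDH15 and CDH24 fell (-1.84 ± 0.27, -1.78 ± 0.44 and -1.54 ± 0.17). Of the semaphorins, plexins and other guidance genes, 8 of 44 tested members rose and 4 fell, with a median log2 fold change of 0.01. NRP1, a co-receptor of semaphorins and VEGF, rose from 0.379 and 0.403 to 33.2 and 36.8 CPM (6.47 ± 0.30), its paralogue NRP2 from 2.53 and 2.11 to 18.4 and 24.2 CPM, SEMA3D from 19.98 and 22.5 to 108 and 108 CPM and SEMA6D from 1.57 and 1.38 to 17.8 and 16.7 CPM. SEMA5A fell from 34.9 and 38.6 to 1.19 and 1.41 CPM, PLXND1 from 231 and 227 to 91.4 and 107 CPM, and SEMA3C and SEMA6B fell by -0.91 and -0.72 on the log2 scale. The gap junction gene GJA1 (connexin 43) rose from 36.5 and 65.5 to 392 and 332 CPM and GJA3 fell from 46.9 and 49.99 to 7.62 and 6.65 CPM, the 2 calls among 9 tested. Of 21 clustered gamma protocadherins, which share their last exons, PCDHGB1 was called higher (1.15 ± 0.24). Of the cadherin calls, 6 and 6 of 6 rises and 4 and 4 of 6 falls remained, and of the guidance gene calls, 5 and 5 of 8 rises and 1 and 2 of 4 falls. The call of PCDHGB1 was lost without either NCI-H1581 library.

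Of the lung epithelial genes, 3 of 16 tested members rose and 2 fell, with a median log2 fold change of 0.03. NKX2-1, the master factor of lung epithelium, rose from 13.3 and 15.1 to 39.9 and 59.9 CPM (1.81 ± 0.25), FOXA1 from 1.602 and 2.11 to 13.5 and 15.5 CPM and GATA6 from 5.302 and 4.88 to 31.4 and 28.6 CPM. FOXP2 fell from 104 and 113 to 11.6 and 16.2 CPM (-2.96 ± 0.22) and MUC1 from 17.6 and 11.3 to 5.58 and 5.94 CPM. The differentiation products NAPSA and SFTPB stayed low, at 0.3496 and 0.176 CPM in NCI-H1581 against 0.318 and 0.716 CPM in NCI-H1581R and at 1.69 and 2.31 CPM in NCI-H1581 against 1.06 and 1.36 CPM in NCI-H1581R, and were not called. NKX2-1 shares 32.6% of its exon bases with another gene. In the squamous and basal list, 2 of 14 tested members rose and 0 fell, with a median log2 fold change of 0.26. The share called, 14.3%, was near the 15.1% of all genes. TP63, the basal cell factor, rose from 6.15 and 5.84 to 27.7 and 31.4 CPM (2.30 ± 0.21) and SOX2 from 1.69 and 0.503 to 6.59 and 6.703 CPM. In the neuroendocrine list, 3 of 16 tested members rose and 2 fell, with a median log2 fold change of 0.26. POU4F1 rose from 0.466 and 0.226 to 10.3 and 12.2 CPM (5.04 ± 0.42), CHGA from 0.204 and 0.126 to 1.96 and 4.66 CPM and POU3F2 by 1.74 ± 0.47, while SNAP25, a synaptic vesicle fusion protein, fell from 17.5 and 15.1 to 0.4499 and 0.435 CPM and CHGB from 22.4 and 25.3 to 4.45 and 6.396 CPM. NEUROD1 and INSM1, transcription factors of neuroendocrine lung cancers, had no count in any of the 4 libraries, and SYP was at 71.9 and 64.6 CPM in NCI-H1581 against 101 and 83.3 CPM in NCI-H1581R. Of the lung epithelial calls, 3 and 3 of 3 rises and 1 and 2 of 2 falls remained, of the squamous and basal calls, 2 and 1 of 2 rises, and of the neuroendocrine calls, 2 and 1 of 3 rises and 2 and 2 of 2 falls.

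Developmental transcription factors changed in both directions. Of the neural and neural crest genes, 9 of 38 tested members rose and 9 fell, with a median log2 fold change of 0.02. LHX2 rose from 9.64 and 9.41 to 104 and 108 CPM (3.48 ± 0.18) and FOXD3, a neural crest factor, from 0.117 and 0.101 to 8.71 and 10.5 CPM, and the neurofilament genes NEFL and NEFM from 0.3496 and 0.478 to 4.13 and 5.42 CPM and from 0.175 and 0.0503 to 1.67 and 2.15 CPM. LHX9 fell from 54.4 and 54.8 to 2.22 and 2.405 CPM (-4.56 ± 0.21), ZIC2 from 51.8 and 59.9 to 5.93 and 7.42 CPM and SOX4 from 11.1 and 15.02 to 0.715 and 0.998 CPM. Of the HOX genes, which give position along the body axis, 4 of 37 tested members rose and 12 fell, with a median log2 fold change of -0.20. HOXD3, HOXD4 and HOXD9 were at 2.33 and 1.59, 1.28 and 1.11 and 1.72 and 1.56 CPM in NCI-H1581 and had no count in NCI-H1581R, at least 49.5-fold, 30.4-fold and 41.9-fold lower. HOXD8 fell from 15.1 and 13.4 to 0.0529 and 0.0512 CPM. The HOXC genes went both ways. HOXC10 went from 45.2 and 44.5 to 0.344 and 0.230 CPM and HOXC11 from 11.7 and 12.5 to 0.318 and 0.128 CPM, both named after their values were seen. HOXC8 rose from 8.19 and 7.37 to 33.4 and 36.2 CPM (2.16 ± 0.20), and HOXC6 and HOXC5 rose by 0.82 and 1.02. HOXC5 shares 100% of its exon bases with other genes of its cluster, and its call cannot be told from theirs. Of the 12 falls, 9 without NCI-H1581 replicate 1 and 9 without NCI-H1581 replicate 2 remained, and of the 4 rises, 2 without NCI-H1581 replicate 1 and 1 without NCI-H1581 replicate 2. Of the mesoderm and endoderm factors, 5 of 31 tested members rose and 10 fell, with a median log2 fold change of -0.71. TCF21 and TBXT had no count in NCI-H1581R, at least 50.8-fold and at least 21.1-fold lower. RUNX1 fell from 12.6 and 10.3 to 0.106 and 0.154 CPM (-6.42 ± 0.46) and MEOX1 from 3.18 and 3.17 to 0.0529 and 0.102 CPM, whereas its paralogue MEOX2 rose from 19.8 and 21.8 to 67.4 and 60.8 CPM, GATA2 from 10.8 and 12.4 to 36.9 and 47.5 CPM, MSX1 from 0.874 and 1.59 to 10.9 and 11.8 CPM and TBX3 from 0.553 and 1.53 to 5.32 and 8.03 CPM. Of 13 stem cell and germ cell genes, LIN28B rose (0.71 ± 0.19) and none fell. In the nuclear receptor list, 5 of 34 tested members rose and 5 fell, with a median log2 fold change of -0.11. NR5A2 rose from 1.25 and 1.36 to 64.5 and 52.2 CPM (5.47 ± 0.26), NR6A1 from 25.7 and 28.3 to 67.8 and 81.5 CPM, and NR1D2 and NR2C1 by 1.08 and 0.87. RORA fell from 18.3 and 26.3 to 0.291 and 0.333 CPM (-6.14 ± 0.41), NR4A2 from 22.5 and 21.5 to 3.28 and 3.35 CPM, NR2E1 from 1.31 and 1.33 to 0.132 and 0.154 CPM, and RARG fell too (-0.999 ± 0.19). Of the neural calls, 7 and 5 of 9 rises and 7 and 7 of 9 falls remained, of the mesoderm and endoderm calls, 3 and 4 of 5 rises and 10 and 9 of 10 falls, and of the nuclear receptor calls, 2 and 2 of 5 rises and 3 and 3 of 5 falls. The call of LIN28B was lost without either NCI-H1581 library.

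**Figure D4:**
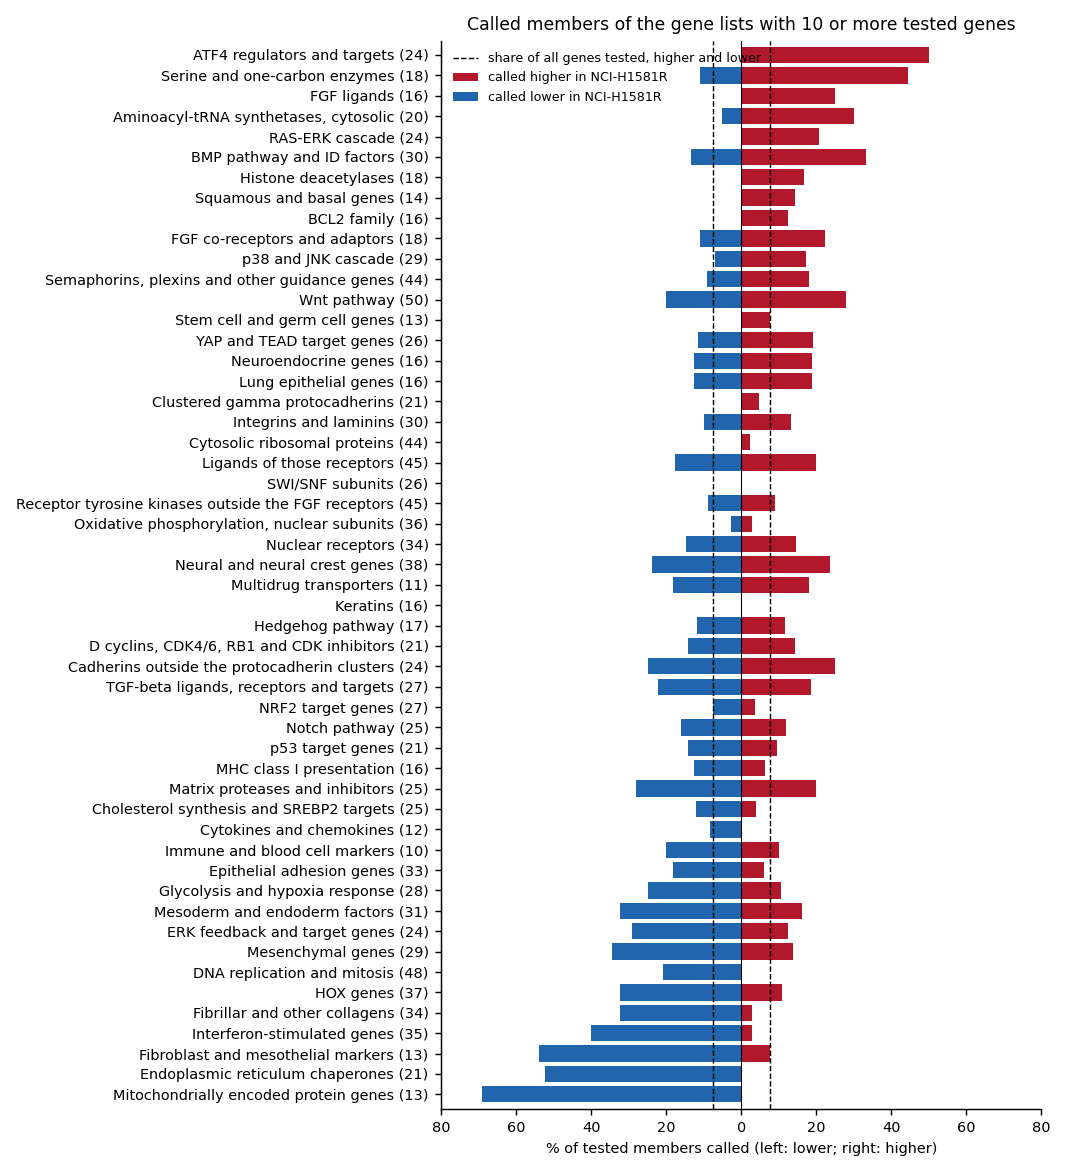
Share of the tested members of each gene list with 10 or more tested genes that rose (red, right) or fell (blue, left) in NCI-H1581R, in % of the number in brackets; dashed lines mark the 7.63% and 7.44% of all genes tested that rose and fell. ATF4 regulators and targets stand at the top with 12 of 24 higher and mitochondrially encoded protein genes at the bottom with 9 of 13 lower.

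Genes of DNA replication and mitosis had 10 falls and no rise among 48 tested, with a median log2 fold change of -0.09. The 4 largest falls were of GINS2 (-0.996 ± 0.22), RRM2 (-0.98 ± 0.24), CDT1 (-0.77 ± 0.17) and TYMS. None of the 10 remained without either NCI-H1581 library. Of the D cyclins, CDK4/6, RB1 and CDK inhibitors, 3 of 21 tested members rose and 3 fell, with a median log2 fold change of -0.13. RB1 rose from 58.2 and 65.4 to 134 and 121 CPM, CDK6 from 128 and 153 to 220.3 and 213 CPM and the p15 gene CDKN2B from 5.45 and 5.03 to 8.68 and 10.5 CPM, while CDKN1A (p21) fell from 21.2 and 13.9 to 6.75 and 6.01 CPM, CCND3 from 115 and 94.1 to 47.1 and 33.3 CPM, and RBL2 fell too (-0.95 ± 0.18). Among BCL2 family genes, the pro-apoptotic HRK and BMF rose, HRK from 1.08 and 1.74 to 6.01 and 6.75 CPM and BMF from 2.94 and 2.31 to 8.205 and 8.11 CPM, and none fell among 16 tested. Of the p53 target genes, 2 of 21 tested members rose and 3 fell, with a median log2 fold change of -0.06, with the death receptor genes TNFRSF10B (-1.25 ± 0.17) and FAS (-1.24 ± 0.27) lower and TP53INP1 (2.13 ± 0.33) and SPATA18 (5.05 ± 0.81) higher. The cytosolic ribosomal proteins gave 1 rise, RPS27 (0.93 ± 0.26), among 44 tested, and the SWI/SNF chromatin remodelling subunits gave none in either direction among 26 by edgeR or by DESeq2. The ribosomal protein median was 0.14, but -0.21 without NCI-H1581R replicate 1 and 0.42 without NCI-H1581R replicate 2. Of 18 histone deacetylases, HDAC9 rose from 5.59 and 5.21 to 23.8 and 26.3 CPM, and HDAC6 and HDAC11 by 1.19 and 0.73. The shares called, 12.5% for the BCL2 family and 16.7% for histone deacetylases, were near the 15.1% of all genes. Of the calls among D cyclins, CDK4/6, RB1 and CDK inhibitors, 0 and 0 of 3 rises and 0 and 2 of 3 falls remained. Of the BCL2 family, 0 and 1 of 2 rises remained, of the p53 targets, 1 and 2 of 2 rises and 1 and 2 of 3 falls, of the ribosomal proteins, 0 and 0 of 1 rise (0 without NCI-H1581R replicate 1), and of the histone deacetylases, 1 and 1 of 3 rises.

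Markers of other cell types were summed in each library, and a few genes made up most of each sum. The summed level of 20 immune and blood cell markers was between 84.5 and 102.8 CPM in NCI-H1581 and between 21.2 and 25.6 CPM in NCI-H1581R, and 12 of the 20 had at most 3 counts in every library. CD3E and CD14 had no count, and PTPRC had 2 and 0 counts in NCI-H1581 and 15 and 15 in NCI-H1581R. The lysosomal gene CD68, at 94.99 and 77.8 CPM in NCI-H1581, held most of the sum and fell (-2.37 ± 0.21), the globin gene HBA1 fell (-2.80 ± 0.39) and CD8A rose (2.39 ± 0.41). CD68 shares 81.6% of its exon bases with another gene. Of 12 endothelial markers, summed at between 103.2 and 114.3 CPM in NCI-H1581 and between 61.5 and 75.4 CPM in NCI-H1581R, TEK rose, EGFL7, which held most of the sum at 109 and 99.7 CPM in NCI-H1581, fell (-0.95 ± 0.20), CDH5 had no count, VWF had 1 count in replicate 1 of each variant, and PECAM1 was at 0.204 and 0.453 CPM in NCI-H1581 against 0 and 0.179 CPM in NCI-H1581R. Of 13 fibroblast and mesothelial markers, summed at between 6581 and 6634 CPM in NCI-H1581 and between 3130 and 3313 CPM in NCI-H1581R, 7 fell and POSTN rose. CALB2, a mesothelial marker, fell from 16.6 and 15.2 to 2.04 and 1.305 CPM, beside FAP, LUM and DCN, and COL3A1 and COL1A2 held most of the sum. Of the fibroblast and mesothelial calls, 1 and 1 of 1 rise and 4 and 4 of 7 falls remained, of the immune and blood cell calls, 1 and 0 of 1 rise and 2 and 2 of 2 falls, and of the endothelial calls, 1 and 1 of 1 rise and 0 and 0 of 1 fall. In bulk RNA, fewer cells of a type and less RNA per cell cannot be told apart. For identity, 11 genes had at least 50 CPM in all 4 libraries of NCI-H1703 and its resistant variant, the other line of the series, and at most 3 counts in both NCI-H1581 libraries. None of the 11 reached 50 CPM in both NCI-H1581R libraries and 8 were under 0.5 CPM in both. On the cut used for NCI-H1581, 5 of the 11 had at most 3 counts in both NCI-H1581R libraries.

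The changes were unevenly spread over the chromosomes. Chromosome 16 had the lowest median log2 fold change of the autosomes and X over all genes tested, -0.30, with 166 of 809 genes lower and 20 higher, against 7.44% lower and 7.63% higher over all genes. Chromosome 8 followed at -0.13, with 92 of 559 lower, and chromosome X had the highest median at 0.20, with 75 of 630 higher. Within chromosomes, 10-Mb windows with at least 20 genes of mean 1 CPM or more were compared, in the coordinates of GRCh38. The 4 windows of chromosome 16 from 50 to 90 Mb had medians between -0.73 and -0.65. Taken as a single stretch, whose limits were chosen after the values were seen, 239 of 257 genes were below 0, 132 fell and 5 rose, with a median of -0.69 and an interquartile range of -0.88 to -0.42. The remainder of chromosome 16 had a median of -0.02, with 29 of 347 genes falling. The metallothionein genes, CDH3, MMP2, CALB2, NLRC5, OSGIN1, CNTNAP4, CDT1, GINS2, KARS1, COX4I1, MVD and RBL2, all given above, lie in that stretch, as does CDH8, which rose.

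Similar stretches were found on chromosomes 13 and 8. On chromosome 13 from 70 Mb, 62 of 71 genes were below 0 and the median was -0.63, against 0.16 for the 124 genes before it. SPRY2 and ZIC2 lie in the lower stretch, and POU4F1, which rose, as well. On chromosome 8 the median was -0.51 for 57 genes from 30 to 50 Mb, which hold FGFR1, and -0.42 for 125 genes from 110 Mb on, against 0.09 for 139 genes between them. The highest window was chromosome 10 from 20 to 30 Mb, with a median of 0.64, 12 of 27 genes higher and 0 lower. ZEB1, NRP1, ITGB1 and ITGA8 lie on chromosome 10 between 10 and 40 Mb. Over the alternatives, the median of the stretch lay between -0.72 and -0.68 on chromosome 16, -0.77 and -0.62 on chromosome 13, -0.72 and -0.51 for chromosome 8 from 30 to 50 Mb, and -0.50 and -0.42 for its stretch from 110 Mb. The genes they are set against moved more, and with the GC and length offsets their median was 0.05 on chromosome 16, -0.01 on chromosome 13 and -0.13 on chromosome 8. With offsets and replicate block the latter 2 were -0.02 and -0.13, and that of chromosome 8 was -0.06 without NCI-H1581R replicate 1. That of chromosome 16 was -0.13 without NCI-H1581R replicate 2 and -0.09 without NCI-H1581 replicate 2. On chromosome 10 from 20 to 40 Mb, the median of 48 genes was 0.46, and between 0.24 (offsets with block) and 0.69 (without NCI-H1581R replicate 1). DNA copy number was not analysed here, and its part in these values was not tested.

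**Figure D5:**
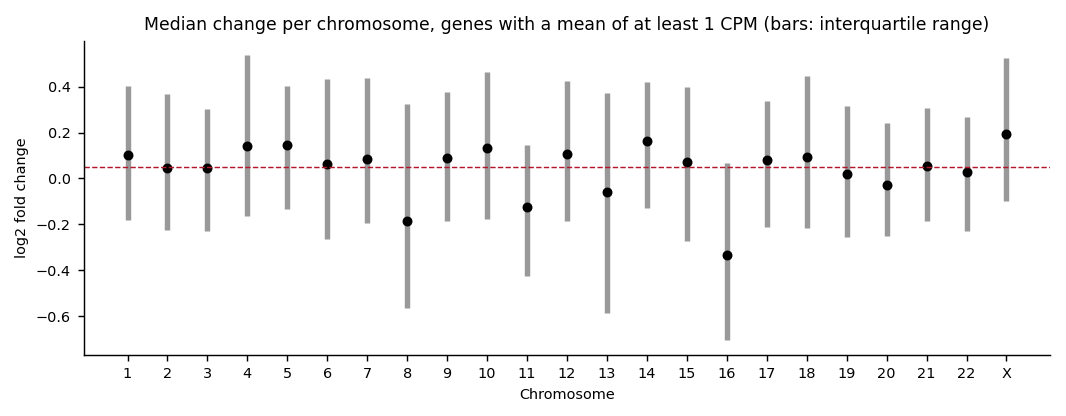
Median log2 fold change (NCI-H1581R over NCI-H1581, dots) and interquartile range (grey bars) of genes with a mean of at least 1 CPM on each autosome and X; the dashed line is the median over all 12371 such genes, 0.05. Chromosome 16 lies lowest at -0.33, chromosome 8 next at -0.18, and X highest at 0.19.

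Genes near the 2 efflux pumps were counted within 1 Mb of each, windows chosen after the values were seen. Around ABCB1, 5 of 11 other tested genes rose and 0 fell, with a median log2 fold change of 0.95 and all 11 above 0. Around ABCG2, 5 of 18 rose and 0 fell, with a median of 0.03, 10 above 0 and 6 below 0. Over all genes tested, 7.63% rose and 7.44% fell, and the median was 0.04. Near ABCB1 on chromosome 7 (chr7:87503017-87713323), RUNDC3B, which overlaps it, SLC25A40, DBF4, ADAM22 and ELAPOR2 rose. SLC25A40 rose from 9.93 and 8.96 to 27.8 and 24.05 CPM, DBF4 from 27.3 and 35.9 to 57.5 and 64.4 CPM and ADAM22 from 0.291 and 0.302 to 17.2 and 22.97 CPM. ABCB4, the adjacent phospholipid transporter, was at 0 in NCI-H1581 and at 0.371 and 0.333 CPM in NCI-H1581R and was not called. Beside ABCG2 on chromosome 4 (chr4:88090150-88231628), SPP1, PKD2, PPM1K, HERC5 and PYURF rose. SPP1, which encodes osteopontin, had no count in NCI-H1581 and stood at 9.32 and 6.14 CPM in NCI-H1581R, at least 190.2-fold higher, PKD2 rose from 6.44 and 5.56 to 19.5 and 26.2 CPM, and PPM1K and PYURF rose by 1.84 ± 0.39 and 0.82 ± 0.23. The neighbours other than RUNDC3B and HERC5 were named after their values were seen.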

How the data were processed

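RNA was sequenced as paired reads, which the authors trimmed with cutadapt and quantified with Salmon against GRCh38, with tximport used to sum transcripts. What the authors deposited is a table of estimated counts, rounded to whole numbers and not normalized, with 1 column a library. Strandedness, transcript annotation and Salmon version are not given in the sources used here. The gene lists, motifs and tests were chosen with earlier results of these data known.

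Genes with at least 10 counts over the 8 libraries of the series were tested with edgeR 4.0.16 (R 4.3.3; TMM scaling, quasi-likelihood F test) on the 4 NCI-H1581 libraries, which leaves 2 residual degrees of freedom, and p-values were adjusted by Benjamini-Hochberg over all 18203 genes, with 0.1 as the threshold. The standard error is the log2 fold change divided by the square root of F. CPM, computed from the deposited counts, use the scaled library sizes. DESeq2 1.42.0 and the other settings named in the closing section were alternatives, and the fit was tested on simulated data. Symbols and positions came from GENCODE release 44, which held 17177 of the genes tested. Of 8 promoter motifs searched, 2 are described.

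Named genes were the 15 largest rises and falls, the FGF receptors, cell type markers, and up to 4 called genes in each direction from each of 56 lists. A few genes that this rule names are not reported here. Of the 1479 distinct list genes, 1324 were tested and 402 called, and 10 had no row in the table and are not analysed here. With genes at 0 counts set to their bound of 3 counts over both libraries, the median moved by more than 0.1 for 1 list, immune and blood cell markers (from -1.90 to -1.61). The 2 replicates differed by more than counting noise in both variants, and more so in NCI-H1581R (chi-square per degree of freedom 103.2, against 24.8 in NCI-H1581). The study's methods say that the procedure was repeated to give the second replicate. A replicate number was taken to mark the same round of culture in both variants, which they do not state. The differences between replicates correlated between the variants across 9272 genes of at least 10 CPM (r = 0.286, across genes, which are not independent).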

Additional observations from a re-analysis of the deposited data

Results flagged for a closer look

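The change with resistance was compared with that in NCI-H1703R against NCI-H1703, the other line of the series, by an interaction term in edgeR over all 8 libraries, which was called for 15.4% of genes tested. The final dose was 2.5 µM for NCI-H1581R and 5 µM for NCI-H1703R, so line, dose and medium cannot be told apart in this term. Of the 30 genes with the largest changes in NCI-H1581R, 18 differed between the lines at an adjusted p below 0.1. The 30 were picked for their change in the same NCI-H1581 libraries that enter this term. A large difference was therefore likely from the choice, and the 18 cannot be set against the 15.4%. The fitted differences (NCI-H1581 minus NCI-H1703, log2) for genes that rose were 15.31 for PEG3, 15.26 for ALDH1A2, 13.92 for SGPP2, 13.39 for RUNDC3B, 11.92 for SRARP, 10.34 for ABCG2, 10.23 for NDNF and 10.13 for CTNNA2. For genes that fell they were -10.85 for GCG, -10.70 for CNTNAP4, -10.46 for TGFB2, -10.45 for PTN, -10.34 for TIMP1, -10.24 for FAP, -10.24 for DGKI, -8.84 for ARHGAP31, -8.61 for DCN and -8.05 for SLC38A5. Where a variant had few or no counts the fitted size depends on the prior count and is no bound.

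In NCI-H1703 itself most of these genes were near absent, and values for both variants were high enough for a comparison in a few. TIMP1 had 2688 and 2382 counts in NCI-H1703 and 3193 and 3901 in NCI-H1703R, ARHGAP31 had 1321 and 1359 against 1391 and 1702, and FAP had 98 and 61 against 261 and 216, with log2 fold changes of 0.41, 0.13 and 1.51. PEG3, which rose in NCI-H1581R, had 213 and 141 counts in NCI-H1703 and 44 and 4 in NCI-H1703R, where it fell (-2.94, edgeR adjusted p = 0.0418). ABCG2 had between 5 and 8 counts in each of the 4 libraries. ABCB1 had at most 3 counts in any of them, and its difference did not pass (adjusted p = 0.121, edgeR).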

How the results depend on the processing

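With 2 libraries a variant, the number of calls depended on which libraries were kept. In place of 2743 genes (1389 higher and 1354 lower), 1160 were called without NCI-H1581 replicate 1 (562 higher, 598 lower), 1122 without NCI-H1581 replicate 2 (499 higher, 623 lower), 5186 without NCI-H1581R replicate 1 (2648 higher, 2538 lower) and 3981 without NCI-H1581R replicate 2, the lone library being assumed to vary like the other variant. Of the 2743 genes, 1067, 1056, 2595 and 2475 kept their call and direction, and no call changed direction under any alternative. All 8 libraries in 1 fit gave 4539 calls (2330 higher and 2209 lower), and a threshold of 0.05 gave 1793 calls (884 higher). The replicate block gave 3293 calls, 2736 of them among the 2743. Offsets for GC content and length with the replicate block gave 4339 calls, 2298 of them lower, and the offsets alone 3391. DESeq2 gave 3223, RLE scaling 2729, no low-count filter 2589, a stricter filter (10 counts or more in each of the 4 libraries) 2621, and legacy dispersions 2593.

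Of the distinct list genes, 402 were called, and between 220 and 581 when 1 library was left out, the lowest without NCI-H1581 replicate 2 (222 without replicate 1). The median of chromosome 16 was -0.30, -0.22 with the GC and length offsets and -0.22 with these and the replicate block, and between -0.41 (without NCI-H1581R replicate 2) and -0.26 without 1 library. The number of largest changes that differed between the lines was 18, and 30 in DESeq2. Of 321 named genes, 98 lost their call without NCI-H1581 replicate 1, 98 without replicate 2, and between 1 and 12 in the other alternatives, apart from 0 of 228 under the stricter filter. The block removed the call of SPRED3, and no other named call was lost with it, while ABCB4, CDH2 and PTPRC gained one. Genes without a call that changed sign were FGFR4 (0.085 with the offsets, 0.071 with offsets and block), KRT18 (0.045 and 0.018) and VWF (0.091 with offsets and block), and, without 1 library, FGFR4 (from -0.39 to 0.052), KRT18 (from -0.69 to 0.46), KRT5 (from -7.60 to 4.02) and VWF (from -2.34 to 2.34). The causes were not tested. At this depth a level under about 0.08 CPM, 3 counts, could not be told from 0.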
